A study of Sus scrofa with 15 samples.

Results

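The genes described here encode glutathione peroxidases (GPX1, GPX3 and GPX4), superoxide dismutases (SOD1, SOD2 and SOD3), catalase (CAT), peroxiredoxin 6 (PRDX6) and thioredoxin (TXN), measured in pig kidney after ischemia reperfusion injury (IRI). They were chosen by name, with earlier results of these data known. A probe was assigned to a gene when its RefSeq accession carried that gene's symbol. Of the 9 genes, 8 had at least 1 probe, and together they had 33 of the 43603 probes and 8 of the 3020 genes with a symbol. SOD2, the superoxide dismutase of mitochondria, had no probe assigned in this way and is not analysed here. CAT had 9 probes, GPX1 and PRDX6 6 each, GPX3 4, GPX4 3, SOD1 and TXN 2 each, and SOD3 1. On every one of the 15 arrays all 33 probes stood well above background.

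Superoxide, which forms in excess when blood returns to an ischemic tissue, is converted to hydrogen peroxide by superoxide dismutases. Catalase breaks hydrogen peroxide down in peroxisomes, glutathione peroxidases reduce it with glutathione, and peroxiredoxins reduce it with thioredoxin or, for PRDX6, with glutathione. The kidney proximal tubule is rich in peroxisomes and in catalase, and it is the main source of the secreted GPX3 of plasma.

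All pigs were female Yorkshire pigs of 20 weeks that had lost the left kidney beforehand, so that every value comes from a single remaining right kidney. The right renal artery and vein were clamped for 90 min of warm ischemia in every pig, and the kidney was taken at 72 h. The control pigs (n = 5) had no ischemic preconditioning, the rIPCe pigs (n = 5) had remote preconditioning just before renal ischemia (early window), and the rIPCl pigs (n = 5) had it 24 h before (late window). For remote preconditioning the external iliac artery was closed for 10 min and reopened, in 2 cycles. The control kidneys were ischemic as well and no kidney was without ischemia, so the comparisons are between kidneys with IRI. No glass slide held both control and rIPCl arrays, and the values with slide in the fit are given beside the results. RNA came from whole kidney tissue, in which fewer cells of a type and less RNA per cell cannot be told apart.

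Values are quantile-normalised log2 signals with SD, differences are log2 fold changes with their standard error (SE) from limma, and a probe was called at a Benjamini-Hochberg adjusted p under 0.05 over all probes. Each gene is represented by its brightest probe. In rIPCl, 3 of the 8 genes fell relative to the control group (SOD1, CAT and TXN) and none rose, against 5.03% of all genes called lower. By probe, 11 of 33 were called and all 11 were lower, against 3.58% of all probes called lower. They were both SOD1 probes, both TXN probes, 5 of 9 CAT probes and 2 of 4 GPX3 probes. The median log2 fold change was -0.27 over the 8 genes and -0.02 over all genes. Since the members were chosen with earlier results of these data known, these shares describe them and do not test them. None of the 8 genes stayed called when the glass slide that held an array entered the fit as a random block, where 0 of all 43603 probes were called. With slide as a fixed block the difference rests on 1 control and 1 rIPCl array. Leaving out 1 array at a time gave 0 to 3 member calls, as given with each gene, and 49 to 4913 calls over all probes (2736 with all arrays). In rIPCe none of the 33 probes was called (limma), against 0.00229% of all probes, while 9 had an unadjusted p under 0.05, all lower, against 8.65% of all probes.

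**Figure D1:**
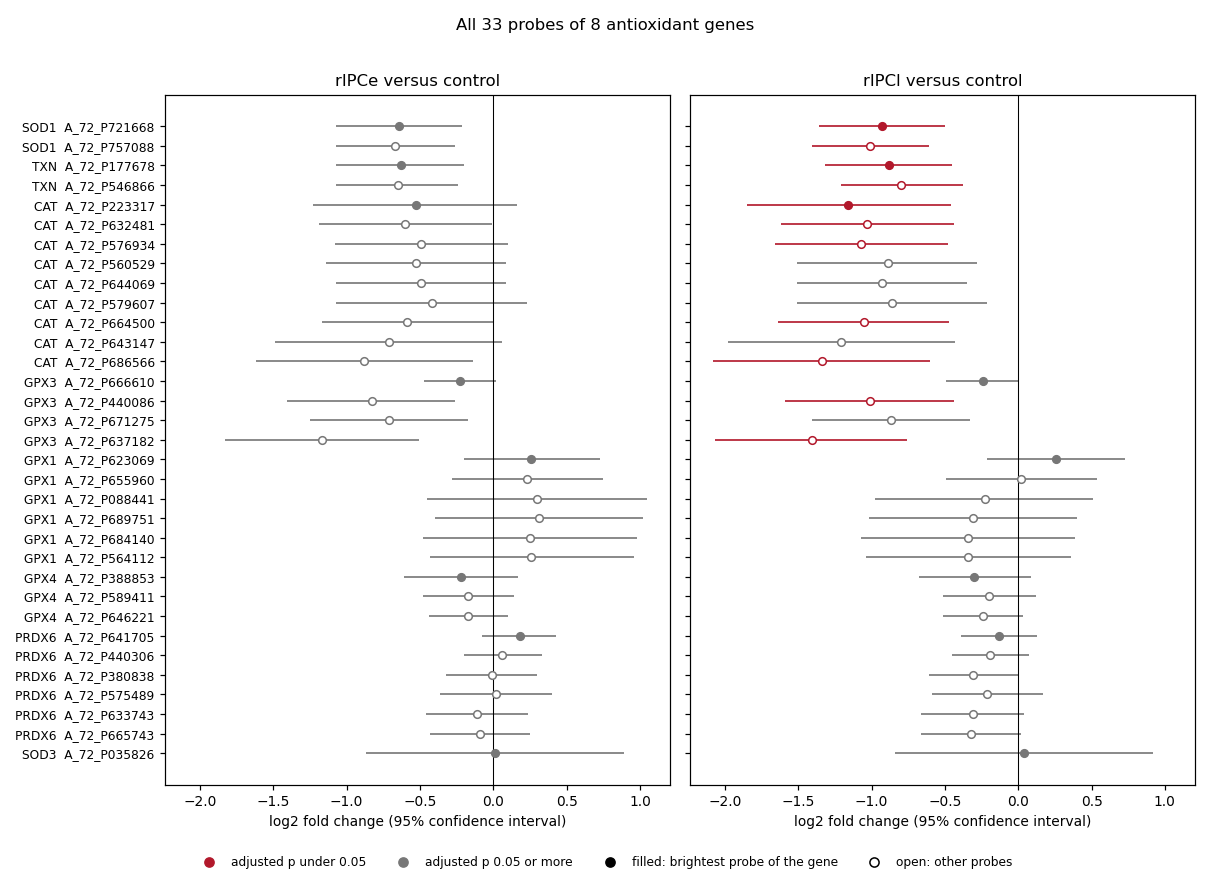
Log2 fold change (x axis) of each of the 33 probes (y axis) for rIPCe versus control and rIPCl versus control, with the 95% confidence interval as a line, red for an adjusted p under 0.05 and filled for a gene's brightest probe. In rIPCl the 11 red probes belong to SOD1, TXN, CAT and GPX3 and lie to the left of 0, and no probe is red in rIPCe.

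SOD1, the copper and zinc superoxide dismutase of the cytosol, was lower in every rIPCl kidney than in every control kidney on both probes. On its brightest probe (A_72_P721668) the control arrays read 16.99, 16.84, 16.33, 16.72 and 16.58, and the rIPCl arrays 16.06, 15.91, 15.33, 15.79 and 15.72. The rIPCe arrays read 16.75, 16.1, 15.75, 15.7 and 15.95, so that 4 of 5 lay below all control arrays and rIPCe 1 lay among them. SOD1 was thus 1.9-fold lower in rIPCl (15.76 ± 0.27, SD, n = 5) than in the control group (16.69 ± 0.25), a log2 fold change of -0.93 (SE 0.20, adjusted p = 0.0277, exact permutation p = 0.00794). This two-sided test enumerated all 252 ways to split 10 arrays into groups of 5, and 0.00794 is the smallest p it can give. The other probe (A_72_P757088) had a log2 fold change of -1.01 (SE 0.19, adjusted p = 0.021). The call was lost without control 2 (adjusted p = 0.0685), control 4 (0.0529), rIPCl 3 (0.0665), rIPCl 4 (0.0633) or rIPCl 5 (0.0621), where the fold change lay between -0.94 and -0.82. In rIPCe the difference from control was -0.64 (SE 0.20, adjusted p = 0.215) on the brightest probe and -0.67 (SE 0.19, adjusted p = 0.196) on the other.

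SOD3, the extracellular superoxide dismutase, had a low signal and did not pass the test. Its only probe (A_72_P035826) read between 5.38 and 6.94 in control kidneys, between 5.58 and 7.45 in rIPCe kidneys and between 5.07 and 6.77 in rIPCl kidneys. The 3 ranges overlapped over most of their length. The log2 fold change was 0.04 in rIPCl (95% confidence interval -0.84 to 0.92) and 0.01 in rIPCe (-0.87 to 0.89). These arrays are thus compatible with a change in either direction within those bounds.

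TXN, the small protein that hands electrons to peroxiredoxins, separated the groups in the same manner as SOD1. On its brightest probe (A_72_P177678) the control arrays read 16.39, 16.04, 15.87, 16.06 and 15.79, and the rIPCl arrays 15.22, 15.11, 15.01, 15.32 and 15.08. The rIPCe arrays read 16.23, 15.5, 15.16, 15.13 and 14.98. No rIPCl array overlapped with the control arrays, and rIPCe 1 was again the only rIPCe array among them. TXN was 1.84-fold lower in rIPCl (15.15 ± 0.12) than in control (16.03 ± 0.23), a log2 fold change of -0.88 (SE 0.20, adjusted p = 0.0314, exact permutation p = 0.00794). The second probe (A_72_P546866) gave -0.80 (SE 0.19, adjusted p = 0.0339). The call on the brightest probe was lost without control 2, 3 or 4 or without rIPCl 2, 3, 4 or 5 (fold change -0.93 to -0.85, adjusted p from 0.0559 to 0.0723). In rIPCe the values were -0.63 (SE 0.20, adjusted p = 0.217) and -0.65 (SE 0.19, adjusted p = 0.205).

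For SOD1 and TXN in the early window the calls changed with the kidney rIPCe 1. Without it, rIPCe differed from control by -0.81 for SOD1 (adjusted p = 0.0496) and by -0.84 for TXN (adjusted p = 0.0261), so that 2 member genes were called in place of 0. Of all 43603 probes, 267 were called without rIPCe 1, in place of 1. The same kidney read 12.56 for NQO1, a quinone reductase, while the other rIPCe kidneys read 8.29 to 9.08 and the control kidneys 11.6 to 12.5. It was also the highest rIPCe kidney on all 6 GPX1 probes, all 4 GPX3 probes and the SOD3 probe.

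**Figure D2:**
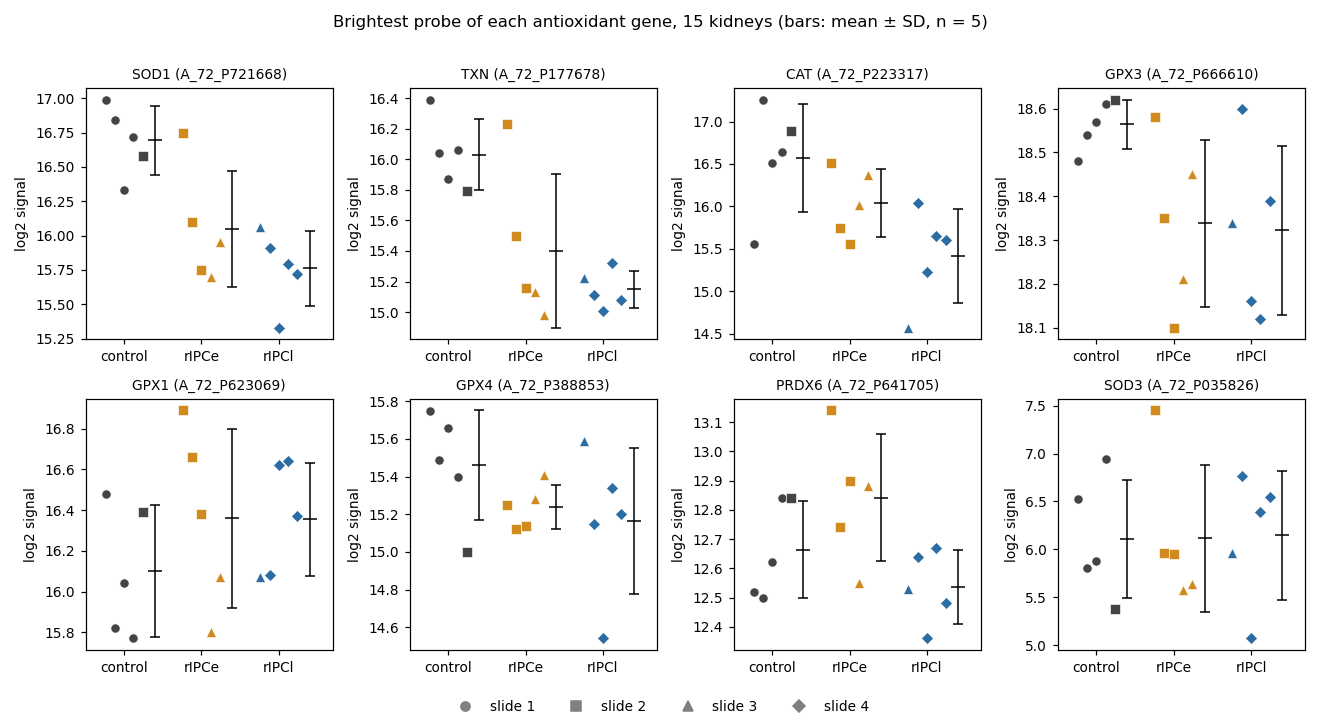
Log2 signal (y axis) of the brightest probe of each gene on every array by group (x axis), with the marker shape for the slide and the bar for the mean ± SD (n = 5). For SOD1 and TXN the rIPCl points lie below all control points and rIPCe 1 lies among the control points, while CAT overlaps and SOD3 shows no shift.

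CAT was 2.23-fold lower in rIPCl than in control on its brightest probe (A_72_P223317), but its groups overlapped. The control arrays read 15.56, 17.26, 16.51, 16.64 and 16.89, the rIPCe arrays 16.51, 15.74, 15.56, 16.02 and 16.37, and the rIPCl arrays 14.57, 16.04, 15.22, 15.65 and 15.6. Control 1 was thus below 3 of the rIPCl kidneys, while 2 rIPCl kidneys lay below all control kidneys. The log2 fold change of -1.16 (SE 0.32) had an adjusted p of 0.0494 and an exact permutation p of 0.0317.

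The 9 CAT probes gave log2 fold changes from -1.34 to -0.86 in rIPCl, with adjusted p from 0.0396 to 0.0942 (limma), and 5 of them were called. In rIPCe the 9 probes were lower by 0.42 to 0.88 on the log2 scale and none was called, with adjusted p from 0.283 to 0.55. All 9 probes ordered the control kidneys alike at the ends, since control 1 was the lowest and control 2 the highest on each of them. With 1 array left out, the brightest probe stayed called without control 1 (fold change -1.41, adjusted p = 0.0168) and without rIPCe 1 (-1.16, adjusted p = 0.0474). Leaving out any other array ended the call, with fold changes from -0.98 without control 2 and -0.95 without rIPCl 1 to -1.31 without rIPCl 2, and adjusted p from 0.0534 to 0.116.

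GPX3, the secreted glutathione peroxidase of plasma, differed between its probes. The brightest (A_72_P666610) read 18.48 to 18.62 on control arrays, 18.1 to 18.58 on rIPCe arrays and 18.12 to 18.6 on rIPCl arrays, where the scanner saturates at 19.57. Its log2 fold change in rIPCl was -0.24 (SE 0.11, adjusted p = 0.185), with 4 of 5 rIPCl arrays below all control arrays. The other probes lay below their control means in each rIPCl kidney, and lower relative to that mean than the brightest probe did. In rIPCl 2 the brightest probe read 18.6, above its control mean of 18.56. The gene passed the test on A_72_P637182 and A_72_P440086 and did not on its brightest probe.

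On A_72_P637182 the control arrays read 16.29, 17.66, 16.96, 16.95 and 16.86, the rIPCe arrays 16.31, 15.97, 15.15, 15.42 and 16.03, and the rIPCl arrays 15.76, 16.16, 14.88, 14.99 and 15.86. All rIPCl kidneys were below all control kidneys, and rIPCe 1 lay just above the lowest control kidney. The level of GPX3 on this probe was 2.66-fold lower in rIPCl, a log2 fold change of -1.41 (SE 0.31, adjusted p = 0.0276, exact permutation p = 0.00794). The log2 fold change was -1.01 on A_72_P440086 (SE 0.27, adjusted p = 0.0424) and -0.87 on A_72_P671275 (SE 0.25, adjusted p = 0.0526). With slide as a random block the calls on A_72_P637182 and A_72_P440086 were lost (adjusted p = 0.232 and 0.27), and 0 of all 43603 probes were called. With slide as a fixed block, which rests on 1 control and 1 rIPCl array, A_72_P637182 had -1.02 (SE 0.91) and A_72_P440086 -0.65 (SE 0.78). In rIPCe the 4 probes had log2 fold changes of -1.17 to -0.23 with adjusted p from 0.188 to 0.381. When the probes of a gene were averaged, GPX3 differed by -0.89 between rIPCl and control and joined the called genes.

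**Figure D3:**
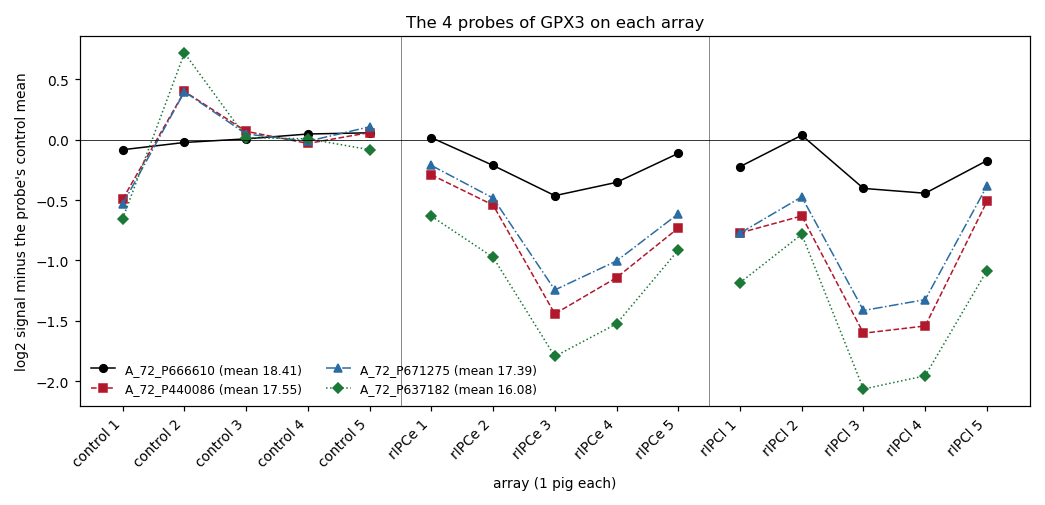
Log2 signal of the 4 GPX3 probes minus each probe's control mean (y axis) on every array (x axis), 1 line per probe with its mean log2 signal in the legend. The 3 dimmer probes move together over the kidneys, the brightest stays within 0.5 of its control mean, and A_72_P637182 reaches lowest, in rIPCl 3.

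Across the 33 probes in rIPCl, the 2 SOD1, 2 TXN and 2 of the 4 GPX3 probes had all 5 rIPCl arrays below all control arrays, that is 6 of 33, against 6.75% of all probes. By the criteria in the methods of the study, a fold change of at least 2 with an unadjusted p under 0.05, 9 of 33 probes were lower, against 2.16% of all probes. The kidneys rIPCl 3 and control 1 stood at the ends of several members. rIPCl 3 was the lowest rIPCl kidney on both SOD1 probes, on 3 of 4 GPX3 probes, on 7 of 9 CAT probes and on all 3 GPX4 probes. Control 1 was the highest control kidney for SOD1, TXN and GPX1 on every probe, and the lowest for CAT and GPX3 on every probe.

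GPX1, the glutathione peroxidase of the cytosol, had a positive fold change on its brightest probe, unlike GPX3 and GPX4, and it did not pass the test. On this probe (A_72_P623069) the control group averaged 16.1 ± 0.32, rIPCe 16.36 ± 0.44 and rIPCl 16.36 ± 0.28, a log2 fold change of 0.26 in each (adjusted p = 0.602 in rIPCe and 0.466 in rIPCl). In rIPCe all 6 probes were higher by 0.23 to 0.31, with adjusted p from 0.602 to 0.772. In rIPCl the probes differed in direction, from -0.34 to 0.26, and averaging them turned the gene's fold change to -0.16.

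The GPX1 probes parted in the kidneys rIPCl 2, rIPCl 5 and rIPCl 3. The brightest probe exceeded the mean of the other 5 by 3.14 in rIPCl 2, by 2.90 in rIPCl 5 and by 2.49 in rIPCl 3. In the other kidneys, rIPCl 1 and rIPCl 4 included, that difference lay between 1.78 and 2.22. On A_72_P088441 rIPCl 2 read 13.54 and rIPCl 5 read 14.26, below all control arrays (14.39 to 15.56), while the brightest probe read 16.08 and 16.37 there, within the control range. The 3 kidneys were on slide 4, which also held rIPCl 4. They were singled out after the values were seen, and the part of the slide in this was not tested.

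**Figure D4:**
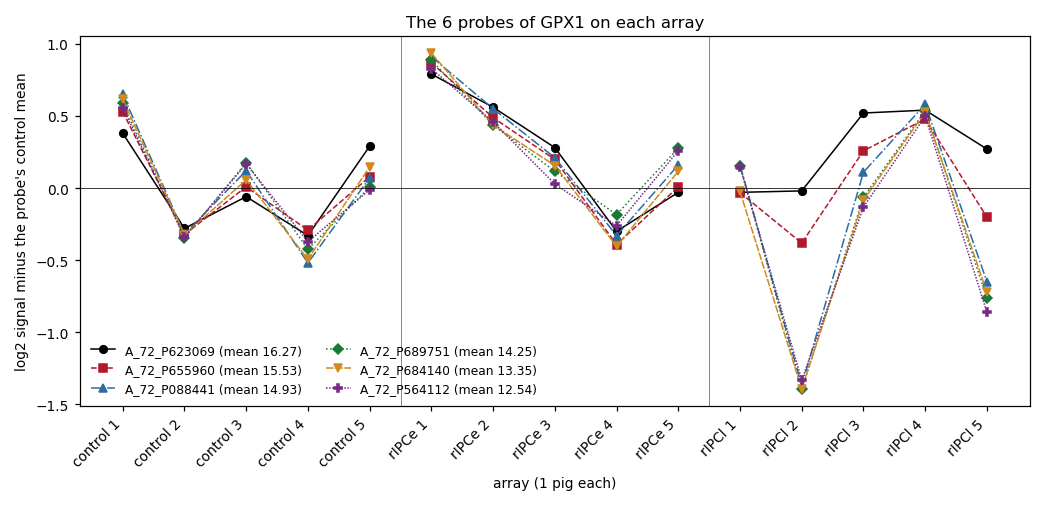
Log2 signal of the 6 GPX1 probes minus each probe's control mean (y axis) on every array (x axis), 1 line per probe with its mean log2 signal in the legend. The lines run together in the control and rIPCe kidneys and separate in rIPCl 2, 3 and 5, where A_72_P623069 stays highest.

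GPX4, which reduces lipid peroxides within membranes, had small negative fold changes on all 3 probes, none of them called. The brightest (A_72_P388853) averaged 15.46 ± 0.29 in the control group, 15.24 ± 0.12 in rIPCe and 15.16 ± 0.39 in rIPCl. Its log2 fold change was -0.22 in rIPCe (adjusted p = 0.598) and -0.30 in rIPCl (SE 0.18, adjusted p = 0.313). All rIPCe kidneys lay within the control range, and rIPCl 3, at 14.54, was the only rIPCl kidney below it.

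PRDX6, a peroxiredoxin that also acts on phospholipids, was lower in rIPCl than in control on all 6 probes, by 0.13 to 0.32 on the log2 scale, without passing the test (adjusted p from 0.191 to 0.523). On its brightest probe (A_72_P641705) the control arrays averaged 12.66 ± 0.17, the rIPCe arrays 12.84 ± 0.22 and the rIPCl arrays 12.54 ± 0.12. Between rIPCl and rIPCe this probe was the only member probe with an unadjusted p under 0.05, at a log2 fold change of -0.30 (limma, adjusted p = 0.979, exact permutation p = 0.0317). That is 1 of 33 member probes, against 1677 of all 43603 probes (limma), so the count does not set PRDX6 apart.

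Between the windows, no member probe was called in rIPCl relative to rIPCe (limma), and 0% of all probes were called. The test of the methods, run on the same values, also called no member gene. The fold changes were negative on 32 of 33 probes, which are repeated readings of 8 genes. By brightest probe 7 of the 8 genes were negative, against 46.4% of all genes, and GPX1, at -0.00, was among the 7. For CAT the brightest probe differed by -0.62 (95% confidence interval -1.32 to 0.07), for SOD1 by -0.29 (-0.72 to 0.14), for TXN by -0.25 (-0.69 to 0.18) and for GPX3 by -0.02 (-0.26 to 0.23). Each of these intervals includes 0. The comparisons of rIPCe and rIPCl with control share the control arrays.

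Over the 15 kidneys the member genes fell into patterns that were more alike in some pairs than in others. Likeness was measured as the root mean square difference of standardised values (z scores), which is 0 for the same pattern. Of the pairs of member genes SOD1 and TXN were the closest on their brightest probes (0.336). GPX3 was nearer to SOD1 (0.695) than to CAT (0.807) on the brightest probes, with medians over all probe pairs of 0.657 and 0.671. CAT and TXN, although both lower in rIPCl, differed more (0.961), and GPX1 was far from CAT (1.57). Among 2376 genes compared, the nearest to SOD1 were TMEM251 (0.320), FTHL17 (0.324) and TXN. The nearest to TXN were ABHD5 (0.326), NQO1 (0.332) and SOD1, and the nearest to CAT were FBP1 (0.330), the gluconeogenic fructose bisphosphatase, RGN (0.333) and CTH (0.402). These values describe 15 arrays that include the group differences.

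Of 76 other redox genes on a list by role, 34 had a probe. In rIPCl 4 of them fell and none rose, against 5.03% of all genes called lower. With slide as a random block 0 were called, as were 0 of all 43603 probes. Negative fold changes were found for 28 of the 34, against 51.5% of all genes, and the median log2 fold change was -0.23, against -0.02 over all genes. GSTO1, an omega class glutathione transferase, was lower by 1.45 on the log2 scale (SE 0.25, adjusted p = 0.0195). Its control arrays read 16.46 to 16.88 and its rIPCl arrays 14.67 to 15.48, with no overlap. NQO1 had the largest fold change of the 34, at -3.14 (SE 0.64, adjusted p = 0.0244), with 11.6 to 12.5 in control and 8.36 to 9.66 in rIPCl. MGST1, a microsomal glutathione transferase, fell by 0.81 (SE 0.22, adjusted p = 0.0466). SEPHS2, which makes the selenium donor for selenoproteins such as GPX1, GPX3 and GPX4, fell by 0.73 (SE 0.16, adjusted p = 0.0269). In rIPCe none of the 34 was called (limma), and 6 had an unadjusted p under 0.05, against 6147 of all 43603 probes. The median was -0.18, against -0.03 over all genes. Without rIPCe 1, 3 of the 34 were called in rIPCe, and 267 of all 43603 probes. The 4 calls in rIPCl became 1 without control 2, control 3 or rIPCl 3, 2 without control 4 and 0 without rIPCl 4 or rIPCl 5. In the same order, calls over all 43603 probes went from 2736 to 184, 492, 263, 892, 74 and 49.

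By role, none of the 6 other peroxidases and peroxiredoxins was called in rIPCl. The largest changes were -0.52 for the mitochondrial and peroxisomal PRDX5 (adjusted p = 0.0596) and 0.50 for GPX6 (adjusted p = 0.0903), and GPX5 was not well above background on any array. None of the 5 genes of the thioredoxin system was called. TXNRD1, the reductase of thioredoxin, had -1.01 (adjusted p = 0.0644), with all rIPCl arrays below all control arrays, while MSRB1 had -0.29 and TXNRD2, the mitochondrial reductase, 0.24. None of the 3 genes of glutathione synthesis and recycling was called, with 0.47 for GGT1, -0.34 for GSS and -0.07 for GCLM. Of the 6 transferases GSTO1 and MGST1 were called, and GSTA1 had -0.77 (SE 1.14). NRF2 itself had no probe, and the 8 measured genes listed with it included KEAP1 and HMOX2. Of these 8 genes 1 was called, NQO1. The next largest changes were 0.41 for MT1A (SE 0.81) and -0.40 for HMOX1, heme oxygenase 1 (adjusted p = 0.112). Of the 6 genes of selenium and copper supply SEPHS2 was called and all 6 were negative, among them SELENOP, the selenium carrier of plasma, at -0.76 (adjusted p = 0.0764) and the copper importer SLC31A1 at -0.37.

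**Figure D5:**
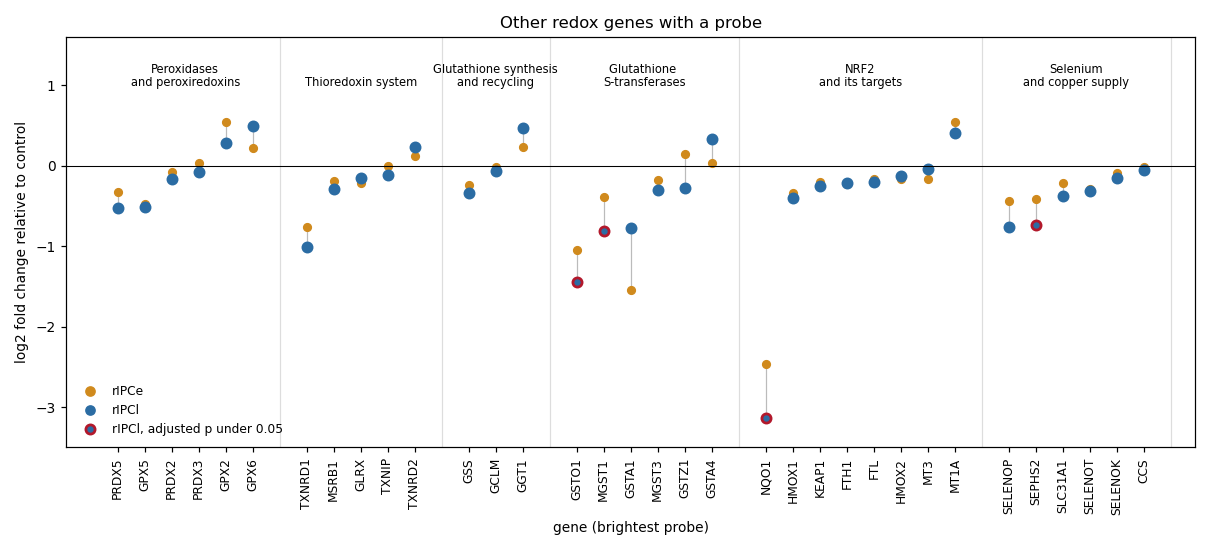
Log2 fold change relative to control (y axis) of the 34 other redox genes (x axis, grouped by role) in rIPCe (orange) and rIPCl (blue, with a red rim for an adjusted p under 0.05). The 4 rimmed points are GSTO1, MGST1, NQO1 and SEPHS2, and most other points lie near or just below 0.

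The tissue label was borne out by proximal tubule genes, of which 11 of 15 had a probe and all 11 were well above background on every array. In rIPCl 10 of the 11 had negative fold changes, against 51.5% of all genes, and the list's median was -0.87. Of the 11, 2 were called lower, against 5.03% of all genes. They were FBP1 at -0.91 (adjusted p = 0.0386) and the bicarbonate transporter SLC4A4 at -1.13 (adjusted p = 0.0433). The mean log2 signal of the 11 genes ranged from 12.56 to 13.73 in the control kidneys, from 12.26 to 13.21 in rIPCe and from 11.91 to 13.14 in rIPCl. Control 1 was the lowest control kidney and control 2 the highest on this mean, as they were for CAT, whereas control 1 was the highest control kidney for SOD1 and TXN, and rIPCl 3 was the lowest of all on this mean. The part of the proximal tubule in the lower CAT, GPX3, SOD1 and TXN was not tested.

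Of the immune cells, 3 of 5 macrophage genes rose in rIPCl, the complement genes C1QA, C1QB and C1QC by 1.45 to 1.65. The other macrophage genes were not called, CD163 at 0.90 (adjusted p = 0.21) and CD14 at -0.12 (adjusted p = 0.836). Of all 43603 probes, 2736 were called in either direction. The mean of the 5 macrophage genes ranged from 9.96 to 11.32 in control, from 10.44 to 11.4 in rIPCe and from 10.68 to 11.87 in rIPCl. None of 5 T cell genes was called, with a median of 1.34 and a mean of 5.02 to 6.68 in control, 4.98 to 7.08 in rIPCe and 5.94 to 8.54 in rIPCl. Of 5 genes of injured tubules CLU, clusterin, rose by 2.02 (adjusted p = 0.0277). SOX9 (2.50), LCN2 (1.04), SPP1 (0.63) and KRT8 (-0.25) were not called. The mean of the 5 injured tubule genes was 11.12 to 13.46 in control, 11.81 to 14.01 in rIPCe and 13 to 13.78 in rIPCl. No gene was called among 3 neutrophil, 3 endothelial, 3 distal nephron, 2 fibroblast and smooth muscle and 1 podocyte genes, with medians of 0.08, -0.03, 0.18, 0.56 and -0.55. The part of these cells in the member genes was not tested.

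The arrays lay on 4 slides that nearly followed the groups. Slide 1 held 4 control arrays, slide 2 held 1 control and 3 rIPCe arrays, slide 3 carried 2 arrays of rIPCe with 1 of rIPCl, the remaining 4 of rIPCl were on slide 4, and no slide held both control and rIPCl. On slide 2 the 3 rIPCe kidneys were all below the control kidney on all 9 CAT and all 4 GPX3 probes, with a difference of -0.95 on the brightest CAT probe and of -1.05 on A_72_P637182 of GPX3. SOD1 differed there by -0.38 and TXN by -0.16, with 2 of 3 rIPCe kidneys below. On slide 3 the rIPCl kidney minus the mean of the rIPCe kidneys was -1.62 for CAT, 0.01 for GPX3, 0.23 for SOD1 and 0.16 for TXN.

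With slide as a block SOD1 had a log2 fold change in rIPCl of -0.15 (SE 0.53), TXN 0.01 (SE 0.49), CAT -2.57 (SE 0.81) and GPX3 -0.27 (SE 0.32). Slides 1 and 4 each held 1 group, so these values rest on the differences within slides 2 and 3. Control 5 and rIPCl 1 were the only control and rIPCl arrays there, so this fit cannot decide for the 5 pigs of each group. With slide as a random block no member gene was called, and 0 of all 43603 probes were. The fold changes were -0.82 for SOD1, -0.76 for TXN and -1.36 for CAT, with adjusted p of 0.245, 0.25 and 0.239 (limma). The percentage of spots well above background also differed between the groups, at 62.2% to 69.5% in control, 67.4% to 73.9% in rIPCe and 71.8% to 74.2% in rIPCl.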

How the data were processed

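RNA from the kidneys of 15 pigs was measured on porcine Agilent arrays of 1 colour, with a separate array for each pig. The authors deposited scanner output of Agilent Feature Extraction 11.0.1.1, an intensity per spot on a linear scale, background-subtracted within each array and not normalised between arrays. The deposited value table matched the mean processed signal within 0.01% for all 43603 probes. No genome build is given in the sources used here.

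Control spots (1417 of 45220) and outlier spots (1 to 70 per array) were left out, no spot was saturated, and intensities were log2 transformed, quantile normalised over the 15 arrays and averaged by probe. A mean per group was estimated for every probe by limma 3.58.1 in R 4.3.3 (lmFit, then eBayes), and the script was tested on simulated data. Symbols came from RefSeq accessions (6686 probes, 3020 genes). Named are all called genes of a list, up to 10 per comparison, and the 3 largest changes of each role in rIPCl. For likeness, the 3 nearest genes of each called member are named. Members, lists and markers were chosen with earlier results of these data known. No erythroid marker had a probe. The number of arrays limits the precision. Slides were read from the array barcodes in the files. Alternatives were other normalisations and background corrections, the deposited table, filters, blocks for slide and replicate number, the methods' t-test, averaged probes, and each array left out. Normexp correction used the median signal, chosen after seeing the data, since the planned mean signal is not in the files used here. Sequences were not used here.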

Additional observations from a re-analysis of the deposited data

Results flagged for a closer look

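Among 99 groups of 5 arrays (33 probes in 3 groups), 4 held an array far from the others by Dixon's gap test, where chance gives about 1 in 20. The kidney rIPCe 1 stood above the other rIPCe kidneys on 3 probes. It read 15.71 on TXN A_72_P546866, where the next highest read 14.88. It read 15.88 on SOD1 A_72_P757088, where the next read 15.18, and 7.45 on SOD3 A_72_P035826, where the next read 5.96. The kidney rIPCl 3 read 11 on PRDX6 A_72_P575489, where the next lowest rIPCl kidney read 11.69.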

How the results depend on the processing

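In rIPCl versus control 3 member genes were called with 75th percentile scaling, the deposited table, outlier spots kept or dim probes left out. The number was 2 with normexp, with only the 10 arrays compared and with the methods' t-test, and 4 with averaged probes. It was 0 with slide as a random block, where 0 of all 43603 probes were called. The fit with slide as a fixed block rests on 1 control and 1 rIPCl array. Leaving out 1 array gave 0 to 3, with 0 without control 2, control 4, rIPCl 3, rIPCl 4 or rIPCl 5 and 1 without control 3 or rIPCl 2. In the same order, these fits called 184, 892, 263, 74, 49, 492 and 985 of all 43603 probes, against 2736 with all arrays. SOD1 was called in 10 of the 15 such fits, TXN in 8 and CAT in 2, with fold changes of -1.02 to -0.82, -0.94 to -0.79 and -1.41 to -0.95. Members called in rIPCe versus control ranged from 0 to 2 (2 without rIPCe 1, where 267 of all probes were called), and those in rIPCl versus rIPCe from 0 to 0. Member genes past the methods' criteria, 1 with all arrays, ranged from 0 to 2 (0 without control 2, 2 without control 3).

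Of the other redox genes, 4 were called in rIPCl, against 8 with 75th percentile scaling, 7 with normexp and 2 with the methods' t-test. The number was 0 with slide as a random block, where 0 of all probes were called. It was 0 to 6 with 1 array left out (0 without rIPCl 4 or rIPCl 5, where 74 and 49 of all probes were called). In rIPCe 0 were called, against 0 to 3 with 1 array left out (3 without rIPCe 1, where 267 of all probes were called). The 75th percentile scaling moved the median of all probes in rIPCl versus control to -0.11.

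Directions turned with slide as a block for GPX4 (0.42 in rIPCl, 0.17 in rIPCe and 0.25 in rIPCl versus rIPCe), TXN (0.01 in rIPCl and 0.16 in rIPCl versus rIPCe), SOD1 (0.23 in rIPCl versus rIPCe), GPX1 (0.14) and GPX3 (0.01). Each of these values rests on control 5, on rIPCl 1 or on both, the only arrays of their groups on a slide shared with another group. In rIPCl versus rIPCe GPX1 also turned with 75th percentile scaling (0.03), normexp (0.03) and the random block (0.04), and GPX3 with 75th percentile scaling (0.01). GPX1 in rIPCl turned with averaged probes (-0.16). With 1 array left out, SOD3 ranged from -0.14 to 0.31 in rIPCl, from -0.32 to 0.22 in rIPCe and from -0.12 to 0.36 between them, and in rIPCl versus rIPCe GPX1 ranged from -0.14 to 0.13, GPX3 from -0.09 to 0.04 and GPX4 from -0.18 to 0.08. Over all alternatives, single arrays left out included, the fold changes of the 8 genes kept their direction and their side of the threshold 164 times in rIPCl, 201 in rIPCe and 182 between rIPCl and rIPCe. Directions turned 9, 5 and 26 times, and a call was gained 1 time in rIPCl and 2 times in rIPCe. In rIPCl 34 kept the direction and lost the call. All 34 were of SOD1, TXN or CAT, the only genes with a call to lose. In the other comparisons no gene had a call to lose. The cause of these changes was not tested.

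The replicate numbers of the labels do not pair the pigs, since deviations of arrays with the same number correlated by -0.266 to 0.0732. With the replicate block 2 member genes and 3 other redox genes were called in rIPCl, and CAT (-1.16) was no longer called. Normexp on the mean signal was not run.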
